A study of Mus musculus with 30 samples.

Results

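The cell proliferation genes are 39 genes that encode DNA replication and mitosis proteins, taken by name from the 19737 genes of the table, and all 39 were found in it. They were read in whole-brain RNA of 30 male C57BL/6N mice. At postnatal day 10 (P10), 5 Arid1b hetero (HT) mice were compared with 5 wild-type (WT) mice, all without drug. At P120 there were 4 groups of 5 mice, HT or WT, reared by dams that drank 0.2% saccharin water alone (Veh) or with 0.1 mg/ml fluoxetine (Flx), a selective serotonin-reuptake inhibitor, from P3 to P21. The HT mice carry a germline protein-truncating mutation at exon 5 in 1 copy of Arid1b, made with CRISPR/Cas9. ARID1B is a subunit of a chromatin-remodelling complex of the BAF (SWI/SNF) family. Vehicle and fluoxetine reached the pups through the milk, and all P120 mice drank plain water after weaning. The P10 mice had neither saccharin nor drug and carry another sample code than the P120 mice, so age, dam treatment and sample set cannot be told apart in the comparison of ages.

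Proliferation genes are transcribed in waves. Genes of the G1/S wave, among them the MCM helicase subunits, cyclin E and the enzymes that make deoxynucleotides, are driven by E2F transcription factors, and genes of the G2/M wave, among them cyclin B, the mitotic kinases, spindle motors and Mki67, are held down in resting and G1 cells by the DREAM complex and are driven later in the cycle by MYBL2 and FOXM1. In the postnatal mouse brain most division takes place in the first weeks, in granule neuron progenitors of the cerebellum, in oligodendrocyte precursors and in vessels, while the adult brain keeps small pools of dividing cells in the subventricular zone, the dentate gyrus and the oligodendrocyte lineage.

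The members were put in 5 role groups. S phase and replication holds 11 genes, cyclins, kinases and their transcription factor Foxm1 hold 10, spindle, kinetochore and cytokinesis holds 12, mitotic exit holds 3 and the chromatin of dividing cells holds 3. Because members fell together with age, as described below, the promoters were read. RefSeq promoters (GRCm38.p6, 250 bases before to 50 bases after the start) were found for 31 of the 39 members, 33 promoters in all. Of these 33, 60.6% held a cell cycle homology region, the DREAM complex's element, spelled TTTGAA or TTCGAA on either strand, against 19.2% of 32851 mouse promoters. A CCAAT box, bound by NF-Y, stood in 84.8% against 37.4%, and an E2F site, for which the 4 spellings TTTCCCGC and TTTGGCGC and also TTTCGCGC and TTTGCCGC were searched on either strand, in 15.2% against 2.26%. By role, the cell cycle homology region stood in 20% of the 10 promoters of S phase and replication members and in 78.3% of the 23 of the other members, and the E2F site in 40% and 4.35%. These shares are counts of letters and not of binding.

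The 150 bases before the start are shown for 3 members that fell with age by more than 5-fold and hold the cell cycle homology region, for 1 that fell with CCAAT boxes alone in this window, and for 2 helicase members that hold E2F sites and fell less. These members were picked with their falls known, and a link between an element and the size of the fall was not tested. Capitals mark the cell cycle homology region, the CCAAT box and the E2F site on either strand. In Mcm6 the first capital run is an E2F site on each strand that share 4 bases. Each window is printed 5′ to 3′ on the strand of its gene, at chr11:99024190-99024339 (Top2a, minus strand), chr7:135716380-135716529 (Mki67, minus), chr19:37376232-37376381 (Kif11, plus), chr9:70421555-70421704 (Ccnb2, minus), chr1:128359706-128359855 (Mcm6, minus) and chr8:75109359-75109508 (Mcm5, plus) of GRCm38.p6.
Top2a: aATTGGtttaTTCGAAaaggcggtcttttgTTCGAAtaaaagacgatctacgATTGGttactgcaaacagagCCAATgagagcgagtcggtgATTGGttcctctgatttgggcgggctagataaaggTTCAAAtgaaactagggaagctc
Mki67: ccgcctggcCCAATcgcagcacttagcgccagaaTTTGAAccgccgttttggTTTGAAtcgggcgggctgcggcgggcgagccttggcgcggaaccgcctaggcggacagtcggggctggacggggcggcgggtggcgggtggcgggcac
Kif11: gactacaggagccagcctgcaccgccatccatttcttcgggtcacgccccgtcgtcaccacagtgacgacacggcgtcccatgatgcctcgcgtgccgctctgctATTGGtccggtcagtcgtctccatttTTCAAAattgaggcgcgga
Ccnb2: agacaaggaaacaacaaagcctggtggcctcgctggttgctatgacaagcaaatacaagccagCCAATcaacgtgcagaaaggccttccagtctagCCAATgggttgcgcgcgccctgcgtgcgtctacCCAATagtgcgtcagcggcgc
Mcm6: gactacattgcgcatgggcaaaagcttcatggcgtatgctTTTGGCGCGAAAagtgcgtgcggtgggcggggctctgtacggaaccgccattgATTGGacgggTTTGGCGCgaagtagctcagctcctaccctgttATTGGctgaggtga
Mcm5: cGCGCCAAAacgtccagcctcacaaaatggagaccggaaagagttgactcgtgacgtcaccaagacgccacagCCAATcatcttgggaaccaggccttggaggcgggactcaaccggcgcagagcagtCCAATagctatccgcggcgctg

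Values are the deposited normalized counts, whose sums ran from 31578614 to 41801037 per library, and the read depth behind them is unknown. Arid1b, the targeted gene, was 2162 to 2334 in the 5 HT mice and 3164 to 3309 in the 5 WT mice at P10. At P120 the library labelled HT-Veh replicate 2 held 3361 and the library labelled WT-Veh replicate 2 held 2320, each in the range of the other genotype. Counts of members in comparisons that use them are also given without them. Group means, percents of P10, levels per kb, mean levels per mouse and the fold changes printed for those comparisons include them. The comparison of HT-Veh with WT-Veh leaves both out. Libraries at P120 also differed by the GC content of the transcript. Deviations were taken from the mean of the libraries of the same age. The GC contrast is the mean log2 deviation of the 10% of genes with the highest GC content minus that of the 10% with the lowest. It was 0.56 to 1.33 in HT-Flx and -0.81 to -0.62 in WT-Flx, while the vehicle groups ran from -0.78 to 0.85 (HT-Veh) and -0.52 to 0.47 (WT-Veh). Among themselves the P10 mice ran from -0.36 to 0.094, and the contrast cannot show a GC difference between the ages. The change with age described below rose with GC content over all genes, with Spearman's rho of 0.31 in WT and 0.42 in HT. Over the members rho was 0.29 and 0.34. Nothing in the labels says which mice were littermates, so p-values measure the spread between these mice. Log2 fold changes are on the scale of log2(normalized count + 1), fitted with limma over all genes with a mean of at least 10 in the compared mice, and a gene is called at a Benjamini-Hochberg adjusted p under 0.05.

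The members were lower at P120 than at P10 in the WT brain, and they differed widely in how far. Between P10 WT and P120 WT-Veh, 37 of the 39 members fell, against 29.4% of the 17908 genes tested, 1 rose (Ccne1, against 28.8%) and Pcna was not called. In 35 members every P120 mouse lay below every P10 mouse (23.1% of all genes). The median log2 fold change was -2.37 over the members and -0.011 over all genes, 31 members were called and at least 2-fold lower (7.52% of all genes), 25 at least 4-fold (1.68%) and 13 at least 8-fold (0.592%). Bub1, Ube2c and Aurkb had WT-Veh means of 2.03, 7.32 and 9.57. These were under the limit of 10, which the genes passed through the P10 mice. In bulk RNA, fewer dividing cells and less RNA per cell cannot be told apart.

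The chromatin genes fell furthest as a group, to a median of 3.85% of the P10 mean. Mki67 (ENSMUSG00000031004, chr7:135689784-135716361, minus strand, GRCm38), which encodes the Ki-67 protein that coats mitotic chromosomes, was 1251.3, 1153.4, 1205.7, 1542.6 and 988.2 in the 5 P10 WT mice and 66.6, 54.3, 22.4, 34.0 and 45.4 in the 5 WT-Veh mice. The ages were far apart in every mouse, with a log2 fold change of -4.83 ± 0.24 (SE, adjusted p = 6.44e-09). Top2a (ENSMUSG00000020914, chr11:98992943-99024189, minus strand), the topoisomerase that untangles replicated chromosomes, was 1165.0, 1005.2, 1087.1, 1306.7 and 873.8 at P10 and 57.9, 55.0, 33.1, 16.8 and 46.6 at P120. It stood at 3.85% of its P10 mean (log2 -4.77 ± 0.27, adjusted p = 1.89e-08), and Hmgb2, a DNA-bending protein of progenitors, kept 16.6%.

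The cyclins and kinases fell to a median of 12.1% of P10, from 4.78% (Cdk1) to 37.8% (Aurka), and all 10 were called. Cdk1 (ENSMUSG00000019942, chr10:69335146-69352938, minus strand), the kinase that starts mitosis, was 202.7, 194.8, 271.4, 252.8 and 176.5 at P10 and 10.7, 12.8, 9.1, 10.8 and 9.1 at P120. The P120 mice thus lay close to the limit of 10 used for testing, and the log2 fold change was -4.25 ± 0.17 (adjusted p = 1.52e-09). Ccna2, cyclin A, which acts in S phase and G2 and has the highest mean of the group, was 539.3, 525.3, 484.1, 586.7 and 387.0 at P10 and 78.4, 94.7, 47.5, 95.5 and 55.0 at P120. It kept 14.7% (log2 -2.79 ± 0.20, adjusted p = 1.12e-07), more than Ccnb1 (5.61%) and less than Ccnb2 (19.7%), the B-type cyclins. Ccnb1 and Ccnb2 each have a named pseudogene in the annotation, so their reads could be shared with it. Foxm1, the transcription factor of the G2/M wave, kept 18.9%.

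The 12 spindle, kinetochore and cytokinesis genes were all called lower and kept a median of 16.9%. Bub1 (ENSMUSG00000027379, chr2:127801122-127831865, minus strand), a kinase of the spindle checkpoint, was 124.6, 142.9, 111.9, 130.1 and 92.7 at P10 and 4.5, 1.0, 0.9, 0.0 and 3.7 at P120, where 1 mouse is listed at 0. It had the largest change of the members, -5.57 ± 0.41 (adjusted p = 1.61e-07), and -4.18 with a pseudocount of 5 and -6.69 with 0.1, since the adult values are so low. Bub1b, its partner in the checkpoint, kept 57.2% of the P10 mean, the most of the group. Tpx2, which activates Aurora A on the spindle, was 463.8, 432.6, 427.0, 503.5 and 293.2 at P10 and 66.3, 80.2, 54.1, 80.9 and 85.4 at P120. No P120 mouse reached the P10 range (log2 -2.51 ± 0.16, adjusted p = 5.60e-08). Cenpf, a kinetochore protein, kept 9.45%, but the library labelled WT-Veh replicate 2 held 112.9 and the other 4 held 11.6 to 25.3.

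The 3 mitotic exit genes fell to 3.40% (Ube2c, the ubiquitin-conjugating enzyme of the anaphase-promoting complex), 19.0% (Espl1, separase) and 23.2% (Cdc20, an activator of that complex). Cdc20 was 268.9, 260.0, 240.8, 290.5 and 170.1 at P10 and 39.4, 41.0, 71.2, 73.3 and 61.1 at P120. Both ages stayed separate (log2 -2.11 ± 0.21, adjusted p = 2.09e-06).

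The S phase and replication genes kept the most, a median of 62.3% of P10, with a range from 10.8% (Rrm2) to 130.1% (Ccne1). Rrm2 is a ribonucleotide reductase subunit. Pcna (ENSMUSG00000027342, chr2:132249162-132253314, minus strand), the sliding clamp of DNA polymerase that also serves in DNA repair, was 1271.2, 1257.7, 1277.9, 1380.6 and 1219.0 at P10 and 1070.3, 1074.3, 1058.9, 1420.7 and 1311.5 at P120. The ages overlapped and the log2 fold change was -0.12 ± 0.09 (adjusted p = 0.277). Pcna has 2 named pseudogenes. Ccne1 (ENSMUSG00000002068, chr7:38097984-38107534, minus strand), cyclin E1 of the G1/S step, was 327.8, 390.6, 393.8, 375.5 and 367.6 at P10 and 458.4, 571.1, 511.5, 456.2 and 417.2 at P120. Every P120 mouse lay above every P10 mouse (log2 0.38 ± 0.10, adjusted p = 0.00541). Mcm4, a subunit of the replicative helicase, was 486.6, 499.9, 456.6, 448.4 and 427.8 at P10 and 379.4, 330.6, 372.0, 392.6 and 370.2 at P120, a small fall without overlap (log2 -0.33 ± 0.08, adjusted p = 0.00337). The 6 helicase subunits Mcm2 to Mcm7 form 1 ring, yet they kept 64.6% (Mcm2), 36.3% (Mcm3), 79.5% (Mcm4), 62.3% (Mcm5), 34.6% (Mcm6) and 75.7% (Mcm7).

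**Figure D1:**
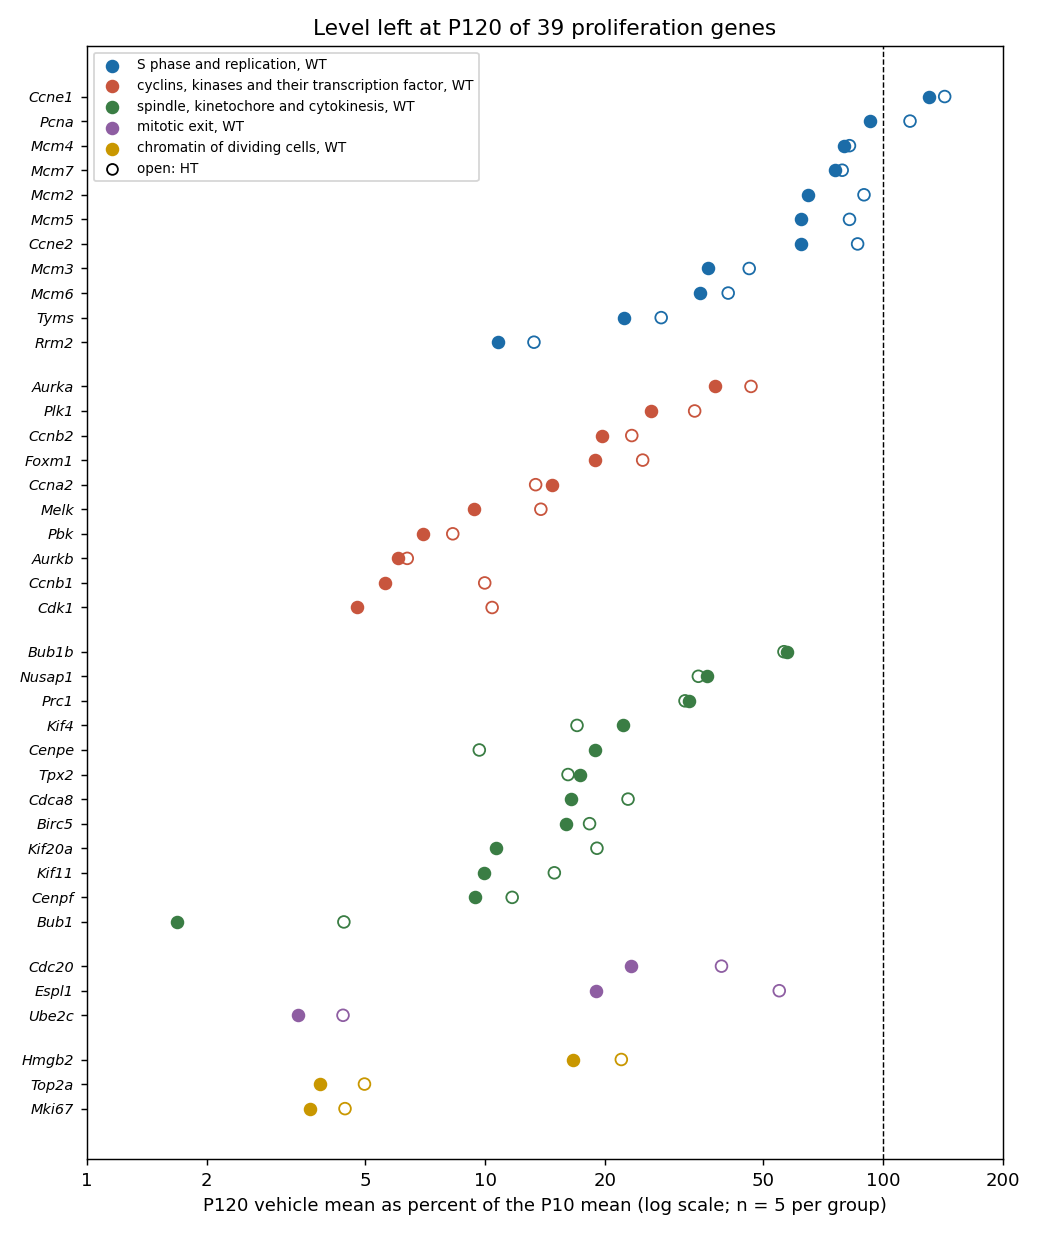
Mean normalized count of the P120 vehicle mice as a percent of the P10 mean of the same genotype (log axis), for each of the 39 members by role group, with filled points for WT and open points for HT (5 mice per group). In WT, 11 members kept under 10% and 8 kept over 50%, of which 7 belong to S phase and replication.

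Per kilobase of transcript, Pcna had the highest level of the members at both ages, 844.1 normalized counts per kb at P10 and 782.1 at P120 in WT. At P10 it was followed by Hmgb2 (238.8), Mcm7 (236.9) and Top2a (208.3), and at P120 by Ccne1 (241.4), Mcm7 (179.3) and Mcm4 (102.8), so that S phase genes took the first 4 places in the adult. The lowest at P120 were Ube2c (3.34), Cenpf (3.30), Cdk1 (2.40) and Bub1 (0.594).

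**Figure D2:**
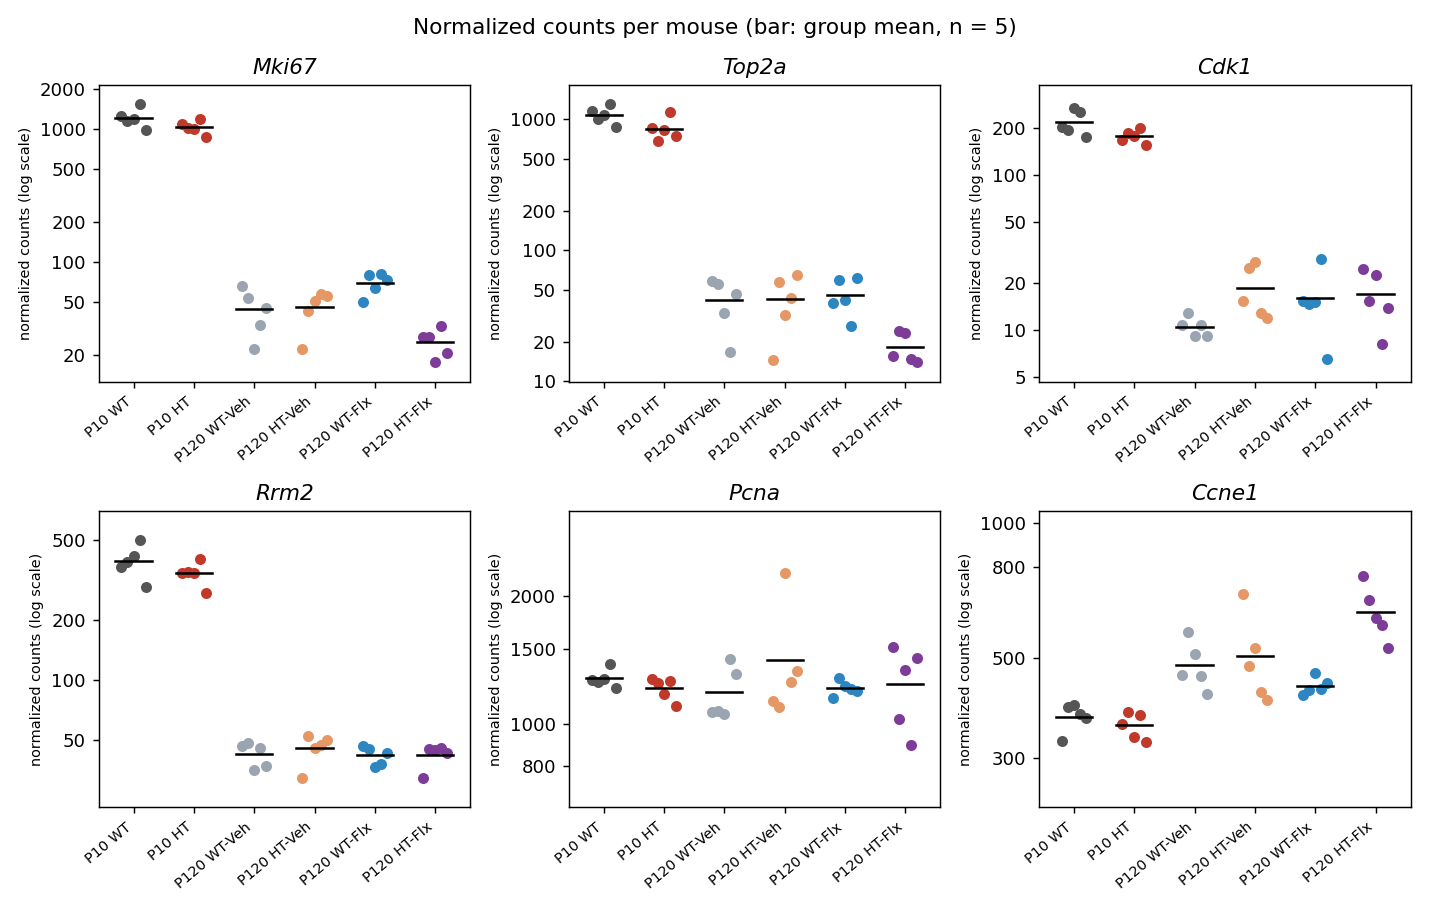
Normalized counts on a log axis of 6 members in each mouse of the 6 groups, with a bar at the mean of 5 mice. Mki67, Top2a, Cdk1 and Rrm2 drop from P10 to P120 in all P120 groups. Pcna overlaps between ages, and Ccne1 is higher in all P120 groups than at P10.

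In the HT brain the members were lower at P120 as well. Between P10 HT and P120 HT-Veh, 32 members fell (25.3% of 17972 genes), Ccne1 rose (25.9%) and the median log2 fold change was -2.11. Every P120 mouse lay below every P10 mouse in 30 members (19.6% of all genes) and above in 1 (20.4%). Of the 6 others, Pcna, Mcm2, Mcm4, Mcm5 and Ccne2 belong to S phase and replication and had log2 fold changes from -0.30 to 0.17. The sixth, Espl1, was 87.2, 197.4, 112.2, 202.0 and 142.6 at P10 and 172.9, 87.1, 96.4, 25.9 and 23.9 at P120, so the ages overlapped (log2 -1.17 ± 0.48, adjusted p = 0.0579). Mki67 was 1089.9, 1026.4, 1014.8, 1198.7 and 871.8 in P10 HT and 22.2, 43.3, 51.4, 58.3 and 56.4 in the HT-Veh mice, a log2 fold change of -4.52 ± 0.22 (adjusted p = 2.74e-08). The counts were 37 and 32 lower without the libraries labelled WT-Veh replicate 2 and HT-Veh replicate 2, and 36 and 35 with each library corrected for GC content and transcript length. The difference of the age change between genotypes was called in no member and in none of 17951 genes (limma), and at an unadjusted p under 0.05 it was above 0 in 6 members (1.76% of all genes) and below 0 in 0 (1.61%). Those 6 were Cdk1, Bub1, Cdc20, Kif20a, Kif11 and Ccne2, named after their values were seen. Bub1 had means of 2.03 in WT-Veh and 3.83 in HT-Veh, under the limit of 10, which it passed through the P10 mice. Cdk1 had 10.5 and 18.5, so the differences of both rest on adult values near the floor. The number of members above 0 was 9 without both libraries labelled replicate 2 of the vehicle groups. With each mouse left out in turn, 4 to 10 were above 0 (10 without P10 WT replicate 5) and 0 to 1 below 0. The count thus rests on which mice are included. The median of the members was 0.32 against 0.019 over all genes. Over all genes the difference between genotypes in the age change rose with GC content (Spearman's rho 0.43), and over the members rho was 0.16. No member was called with the GC and length correction.

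Other cell cycle genes moved with the members in part. Of 55 other mitosis genes, 48 fell in WT and 6 rose, led by Knl1 (kinetochore scaffold, log2 -4.81), Kif2c (a microtubule depolymerase, -4.63) and Depdc1a (-4.35), while Anln (anillin, a cytokinesis protein that is also found in mature oligodendrocytes) rose by 1.76, Pttg1 (securin) by 0.54 and Incenp by 0.48. Of 47 other replication genes, 29 fell and 4 rose. The lowest were Uhrf1 (maintenance of DNA methylation, -3.24), Chaf1b (histone deposition, -3.23) and Dbf4 (the activator of the Cdc7 kinase, -1.98), and the highest were the polymerase delta subunits Pold1 (0.69) and Pold2 (0.52) and the single-strand binding protein Rpa1 (0.45). Of 35 G1 and checkpoint regulators, 20 fell and 8 rose, with E2f8 (-3.18), Cdc25c (-3.15) and E2f7 (-2.52) at the low end and E2f6 (0.74), Wee1 (0.72) and Ccnd3 (0.64) at the high end. The medians were -2.12 for mitosis, -0.44 for replication and -0.40 for G1 regulators. Over all genes 29.4% fell and 28.8% rose in WT, and the marker lists of the cell types stood on both sides of these shares. In WT, 9 of 11 neural progenitor and neuroblast markers, 7 of 8 oligodendrocyte precursor markers, 5 of 6 endothelial markers and 5 of 9 cerebellar granule neuron progenitor markers were lower (3 of these 9 were higher). Of the other lists, 3 of 6 erythroid, 2 of 7 neuron, 1 of 7 microglia, 1 of 6 astrocyte and 0 of 6 mature oligodendrocyte markers were lower, and 0, 4, 4, 2 and 3 of them were higher. Their part in the fall of the members was not tested.

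At P10 the members tended to lower values in HT than in WT, and none passed the test. In 37 of the 39 members the log2 fold change was below 0 (52.9% of 17896 genes), with a median of -0.24 against -0.009 over all genes. No member was called by limma, and 2 higher and 2 lower genes were called in all (0.0112% each). At an unadjusted p under 0.05, 18 members were lower (6.84% of all genes) and 0 higher (5.73%), of which 6 were spindle genes, 5 cyclins and kinases, 3 S phase genes, 2 mitotic exit genes and 2 chromatin genes. This number ran from 9 (without HT replicate 5, or without WT replicate 4) to 29 (without WT replicate 5), was 11 without WT replicate 3, and was 19 with the GC and length correction, so it rests on which mice are included.

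The HT mean was 70.6 to 100.8% of the WT mean, with a median of 84.0%. In 22 members all 5 HT mice lay below the WT mean. The share of all genes that do so was not computed, so this count has no background to be judged by. In 2 members, Bub1 and Prc1, no HT mouse reached the WT range (1.69% of all genes). Bub1 was 89.7, 90.8, 84.9, 88.8 and 79.4 in HT and 124.6, 142.9, 111.9, 130.1 and 92.7 in WT (log2 -0.46 ± 0.12, adjusted p = 0.268). Kif11, the motor that pushes spindle poles apart and the member with the lowest p, was 333.4, 265.6, 311.1, 348.6 and 266.4 in HT and 398.7, 408.5, 446.8, 490.8 and 335.9 in WT. The groups touched only through HT replicate 4 and WT replicate 5 (log2 -0.44 ± 0.11, adjusted p = 0.247). Mki67 was 1089.9, 1026.4, 1014.8, 1198.7 and 871.8 in HT and 1251.3, 1153.4, 1205.7, 1542.6 and 988.2 in WT, with the highest HT mouse above 2 of the WT mice (log2 -0.23 ± 0.11, adjusted p = 0.395). Top2a was 851.1, 677.1, 834.6, 1142.4 and 740.3 in HT and 1165.0, 1005.2, 1087.1, 1306.7 and 873.8 in WT. One HT mouse, replicate 4, lay among the WT mice (log2 -0.37 ± 0.13, adjusted p = 0.33). Mcm7 (0.02 ± 0.08, adjusted p = 0.941) and Hmgb2 (0.01) were the members not below 0, and Plk1, the polo-like kinase, had the lowest estimate (-0.54 ± 0.21).

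**Figure D3:**
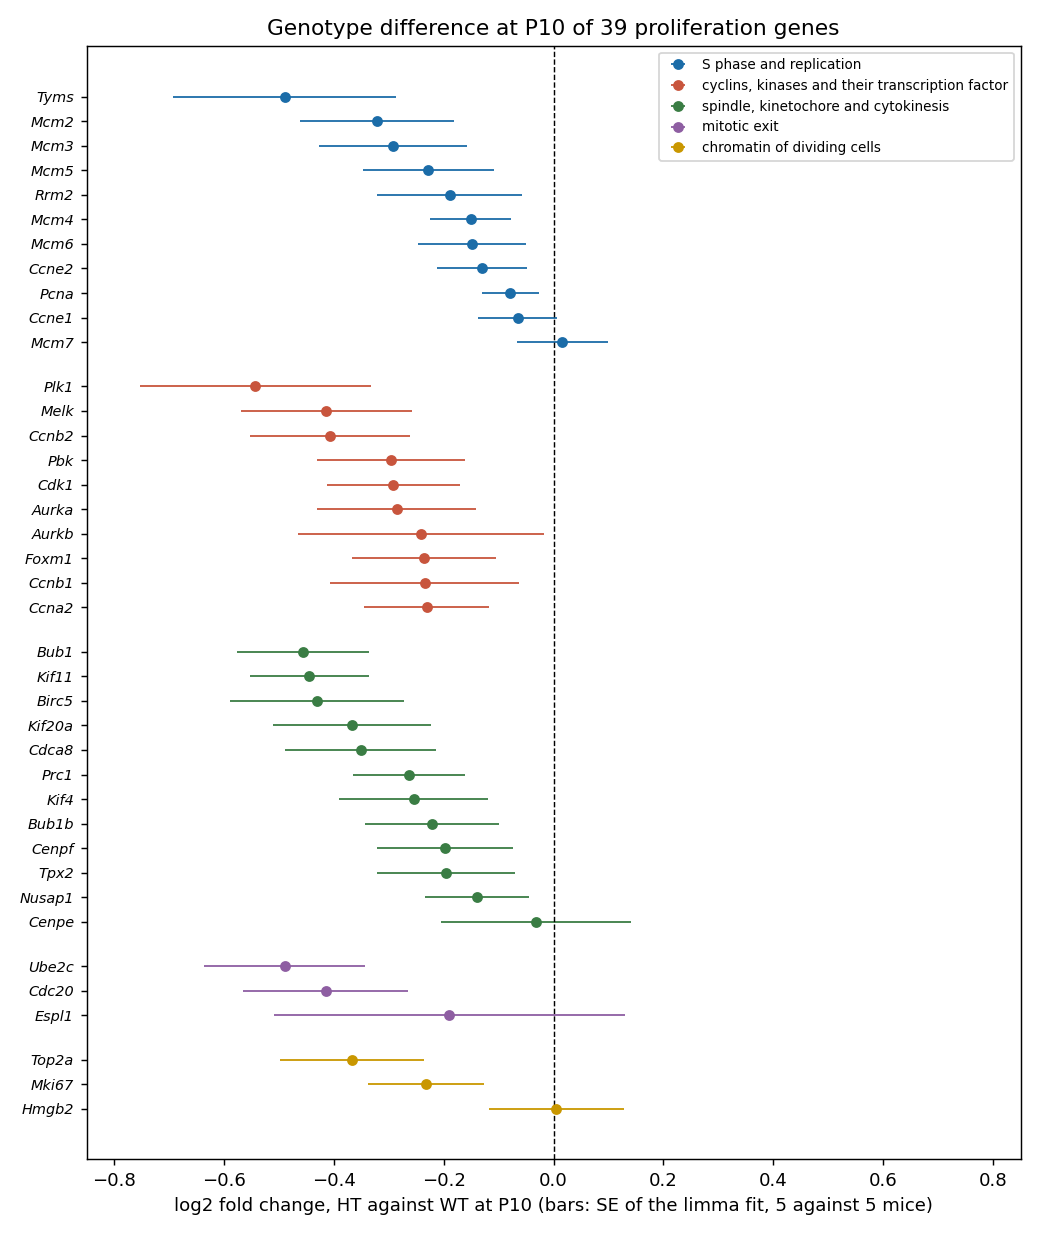
Log2 fold change of HT against WT at P10 for the 39 members by role group, with bars of 1 SE from the limma fit (5 against 5 mice). The points lie between -0.54 (Plk1) and 0.02 (Mcm7), and 37 of 39 are left of 0.

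Summed markers of other cells stood apart between the genotypes at P10 in some lists and overlapped in others. The summed level of 6 erythroid markers was 5271 to 8455 in HT and 10393 to 13185 in WT, with Hbb-bs called lower and 5 of 6 under an unadjusted p of 0.05. The sum of 6 endothelial markers was 6364 to 7376 in HT and 7404 to 8001 in WT, that of 8 oligodendrocyte precursor markers 19193 to 25468 and 25058 to 28572, and that of 9 granule neuron progenitor markers 14170 to 17895 and 17280 to 18505, where the latter pair of lists overlapped at the edges. No defining marker of these lists was at 0 in every P10 mouse. Single precursor markers went both ways. The means of Pdgfra (4259 in HT and 3873 in WT) and Cspg4 (1566 and 1487) were higher in HT. Those of Gpr17 (6793 and 9407), Olig1 (5689 and 6599) and the rest of that list were lower. In the granule neuron progenitor list Gli2 alone had a higher mean in HT (339.2 and 305.7). The 11 neural progenitor and neuroblast markers overlapped more, at 15742 to 18700 and 14399 to 19214, as did 6 mature oligodendrocyte markers (94080 to 179096 and 126603 to 245770), 6 astrocyte markers (96701 to 109358 and 90645 to 109408), 7 microglia markers (6428 to 7120 and 5796 to 7710) and 7 neuron markers (171332 to 174041 and 168410 to 174296). Each of the 6 mature oligodendrocyte markers had a log2 fold change below 0, from -0.39 to -0.19, with 0 of them under an unadjusted p of 0.05. The part of these cells in the members' values was not tested. Of the 55 other mitosis genes, 49 were below 0 at P10 and 9 had an unadjusted p under 0.05, with 0 called. Of 48 other replication genes 32 were below 0, with 5 lower and 1 higher at an unadjusted p under 0.05, and of 35 G1 regulators 24 were below 0, with 2 lower and 0 higher.

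A mean level per mouse, the mean log2 level of the members minus that of all other genes tested, was -0.67 ± 0.14 (SD, n = 5) in P10 HT and -0.41 ± 0.20 in P10 WT, with the highest HT mouse at -0.45 and the lowest WT mouse at -0.73. At P120 it was -2.84 ± 0.11 in WT-Veh, -2.79 ± 0.054 in HT-Veh, -2.75 ± 0.056 in WT-Flx and -2.95 ± 0.041 in HT-Flx. Split by role, the S phase and replication members ran from -0.94 to -0.51 over all 20 P120 mice, and the other 28 members from -3.88 to -3.41.

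**Figure D4:**
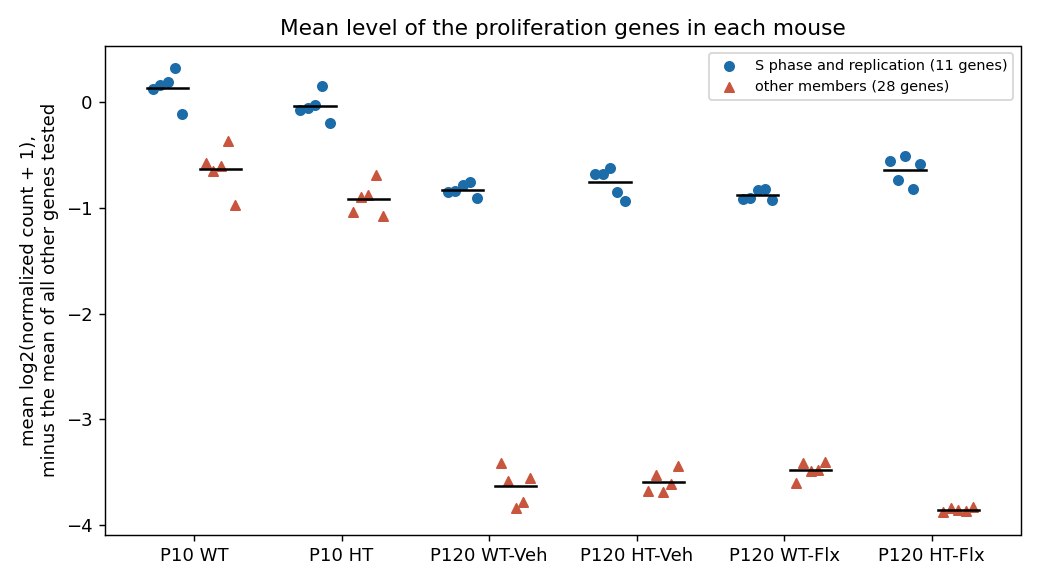
Mean log2 level of the S phase and replication members (circles) and of the other 28 members (triangles) in each mouse, minus the mean of all other genes tested, with a bar at the mean of 5 mice. Both sets are lower at P120, and the fall is larger for the 28.

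In adult mice without the drug no member passed the test between genotypes. With 4 HT-Veh and 4 WT-Veh mice (replicate 2 of each left out), 0 of the 36 members with a mean of at least 10 were called, as were 0 of 17784 genes (limma). Aurkb, Bub1 and Ube2c did not reach that mean. At an unadjusted p under 0.05, 1 was higher (0.765% of all genes) and 1 lower (0.523%), and these counts ran from 0 to 2 and from 0 to 3 when 1 more mouse was left out. Ccnb1, cyclin B1, was 20.8, 9.1, 19.8, 21.4 and 32.2 in the HT-Veh mice and 9.9, 16.3, 9.5, 21.7 and 10.2 in the WT-Veh mice (replicates 1 to 5, log2 0.89 ± 0.35, adjusted p = 1). Bub1b was 91.5, 257.1, 37.4, 44.8 and 168.9 and 144.8, 128.3, 126.3, 127.0 and 191.8, widely spread in HT-Veh (log2 -1.01 ± 0.41, adjusted p = 1). In 1 member, Cdk1, every HT-Veh mouse used lay above every WT-Veh mouse used (0.534% of all genes).

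Within a genotype, no member was called after early fluoxetine. Between HT-Flx and HT-Veh, 0 of 34 members and 0 of 17676 genes were called (Melk and Pbk also fell below the mean of 10), and at an unadjusted p under 0.05, 9 members were lower (11.9% of all genes) and 3 higher (11.2%). Cenpe, a kinetochore motor, had the lowest p, with 9.9, 8.4, 5.2, 21.4 and 6.1 in the HT-Flx mice and 12.9, 19.1, 34.0, 28.1 and 29.0 in the HT-Veh mice (log2 -1.28 ± 0.39, adjusted p = 0.215). Mcm2 was 482.1, 422.3, 380.2, 448.3 and 415.3 in the HT-Flx mice and 371.8, 327.2, 438.3, 186.9 and 227.7 in the HT-Veh mice (log2 0.53 ± 0.21, adjusted p = 0.215). Across the 34 members the log2 fold change rose with GC content (Spearman's rho 0.85, a description over genes that share the same libraries), and after the GC and length correction the 2 values were -0.78 and 0.26. Without the library labelled HT-Veh replicate 2, 8 members were lower and 2 higher at an unadjusted p under 0.05. With each of the 10 mice left out in turn, 5 to 10 members were lower and 0 to 6 higher. The number lower was 5 without HT-Veh replicate 5, and the number higher was 0 without HT-Veh replicate 5 or HT-Flx replicate 1, 1 without HT-Veh replicate 4 and 6 without HT-Veh replicate 1, so both counts rest on which mice are included.

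Between WT-Flx and WT-Veh, 0 of 36 members and 0 of 17865 genes were called, and 3 members were higher (10.3% of all genes) and 1 lower (14.9%) at an unadjusted p under 0.05. Hmgb2 was 119.1, 134.4, 144.3, 202.9 and 139.1 in the WT-Flx mice and 93.5, 88.7, 115.3, 101.6 and 123.0 in the WT-Veh mice (log2 0.49 ± 0.16, adjusted p = 0.111). Mcm2 was 248.8, 179.8, 234.0, 249.0 and 172.3 and 220.9, 272.8, 311.5, 332.4 and 254.7, overlapping (log2 -0.36 ± 0.15, adjusted p = 0.159). Each of these 2 values came nearer to 0 with the GC and length correction, 0.14 and -0.18. Without the library labelled WT-Veh replicate 2, again 3 were higher and 1 lower at an unadjusted p under 0.05, and over the 10 mice left out in turn 2 to 4 were higher and 0 to 2 lower.

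The fluoxetine groups of the 2 genotypes differed in many members, as in many genes. Between HT-Flx and WT-Flx, 15 of 36 members were lower and 9 higher, against 30.5% and 33.1% of 17799 genes, so the share of called members, like that of all genes, was large. Groups did not overlap in 10 members that were lower (22.9% of all genes) and 6 that were higher (25.6%). The calls ran by GC content, since every member called lower had 48.1% or less (Kif4) and every member called higher 51.4% or more (Aurka). The log2 fold changes of the 36 members rose with the GC content of the transcript (rho 0.77, against 0.78 over 17788 genes), and the 2 groups did not overlap in the GC contrast given above. With the GC and length correction, 5 members were lower and 7 higher (15.6% and 20.3% of all genes), 9 of them called in the same direction as before.

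In S phase and replication, 5 genes were higher in HT-Flx. Mcm2 was 482.1, 422.3, 380.2, 448.3 and 415.3 in the HT-Flx mice and 248.8, 179.8, 234.0, 249.0 and 172.3 in the WT-Flx mice, with no overlap (log2 1.00 ± 0.13, adjusted p = 5.86e-05, and 0.47 after correction, adjusted p = 0.00778). Mcm5 was 447.4, 435.6, 351.8, 398.9 and 368.5 and 263.7, 187.1, 268.0, 226.4 and 267.1 (log2 0.73 ± 0.12, and 0.59 after correction, adjusted p = 0.00274). Ccne1 was 760.6, 673.9, 614.8, 594.0 and 528.4 and 415.1, 425.5, 463.0, 426.5 and 441.2 (log2 0.54 ± 0.10, and 0.29 after correction, adjusted p = 0.0253). These 3 were called with and without the correction and their groups stood apart in every mouse. Mcm3 was 146.2, 168.2, 190.4, 101.9 and 158.6 and 89.0, 89.2, 101.7, 84.4 and 85.9 (log2 0.73, and 0.40 after correction, adjusted p = 0.056). Mcm7 was 815.4, 670.9, 598.6, 616.5 and 697.2 and 580.1, 512.6, 490.8, 506.9 and 506.4 (log2 0.38, and 0.07 after correction). The other 2 called genes of the group were lower and turned with the correction. Mcm4 was 204.6, 309.6, 245.3, 334.5 and 347.3 and 380.2, 353.7, 425.5, 417.8 and 383.3 (log2 -0.47, and 0.05 after correction). Ccne2, cyclin E2, with the lowest GC content of the members (36.3%), was 96.1, 88.7, 130.7, 106.8 and 162.7 and 162.7, 142.1, 194.7, 188.2 and 143.7 (log2 -0.53, and 0.34 after correction).

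Among cyclins and kinases, Ccna2 was 36.5, 28.7, 34.1, 29.6 and 32.7 in the HT-Flx mice and 72.9, 85.0, 106.9, 52.4 and 81.3 in the WT-Flx mice, with no overlap (log2 -1.25 ± 0.19, adjusted p = 1.42e-04, and -0.74 after correction, adjusted p = 0.0125). Aurka, the kinase of the spindle poles, was 63.0, 74.6, 54.3, 48.7 and 82.7 and 46.8, 38.4, 32.7, 42.5 and 44.9, higher in HT-Flx in every mouse (log2 0.63 ± 0.18, and 0.53 after correction, adjusted p = 0.0306). These 2 moved in opposite directions and both were called after the correction. Foxm1 was 71.8, 65.5, 86.3, 136.1 and 78.3 and 50.9, 86.5, 35.6, 66.2 and 39.8 (log2 0.67, and 0.11 after correction). Melk, a kinase of progenitors, was 1.1, 11.1, 11.1, 5.9 and 2.0 and 21.1, 19.8, 12.6, 11.1 and 25.8 (log2 -1.66, and -1.16 after correction, adjusted p = 0.0832). Pbk, a mitotic kinase, was 3.2, 7.9, 9.6, 2.8 and 5.7 and 12.8, 9.0, 16.3, 16.0 and 16.8 (log2 -1.24, and -0.62 after correction). These 3 overlapped between the groups and were not called after the correction. In HT-Flx the means of Melk (6.24) and Pbk (5.84) were under the limit of 10, which both passed through the WT-Flx mice (18.1 and 14.2).

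In spindle, kinetochore and cytokinesis, 7 genes were lower in HT-Flx and 0 higher. Prc1, which bundles microtubules at the midzone, was 57.4, 57.2, 47.6, 37.6 and 40.2 in the HT-Flx mice and 121.1, 93.6, 110.1, 88.9 and 108.0 in the WT-Flx mice (log2 -1.12 ± 0.16, adjusted p = 1.12e-04, and -0.59 after correction, adjusted p = 0.0299). Cenpe was 9.9, 8.4, 5.2, 21.4 and 6.1 and 23.1, 47.8, 41.3, 30.2 and 30.3 (log2 -1.78 ± 0.35, and -0.86 after correction, adjusted p = 0.0488). Tpx2 was 36.6, 49.2, 34.0, 61.6 and 50.3 and 76.7, 92.5, 89.4, 58.2 and 97.4 (log2 -0.83 ± 0.20, and -0.49 after correction, adjusted p = 0.0494). These 3 were called with and without the correction, the last 2 only just under the threshold. Kif11 was 26.2, 40.6, 15.0, 34.9 and 24.4 and 50, 57.0, 50.3, 51.9 and 59.3 (log2 -0.97, and -0.19 after correction). Cenpf was 6.6, 9.2, 12.4, 13.2 and 12.5 and 31.3, 28.3, 25.5, 13.4 and 29.6 (log2 -1.16, and -0.24 after correction). Both groups stood apart in these 2 genes as deposited. Nusap1, a spindle protein, was 39.7, 55.9, 47.6, 70.0 and 57.9 and 93.8, 84.8, 109.4, 99.1 and 73.1 (log2 -0.76, and 0.01 after correction). Kif4, a chromosome motor whose exons overlap Pdzd11 on the other strand, was 10.1, 14.7, 19.5, 42.7 and 32.7 and 53.5, 36.5, 43.8, 39.1 and 42.7 (log2 -0.99, and -0.68 after correction). The kit does not keep the strand, so reads of Kif4 and Pdzd11 cannot be told apart where they overlap. Exons of 11 members overlap a gene on the other strand, and the same limit holds for each of them. Besides Kif4 these are Mcm7, Ccna2, Ccne2, Cdc20, Cdca8, Kif20a, Nusap1, Plk1, Prc1 and Ube2c. Kif4 and Tyms also each have a named pseudogene, as Ccnb1, Ccnb2 and Pcna do.

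Of the chromatin genes, Mki67 was 27.4, 27.5, 17.8, 33.3 and 20.8 in the HT-Flx mice and 50.3, 81.1, 64.4, 81.8 and 74.3 in the WT-Flx mice, with no overlap (log2 -1.45 ± 0.21, adjusted p = 1.01e-04, and -0.99 after correction, adjusted p = 0.00539). Top2a was 15.7, 24.2, 23.3, 14.8 and 13.9 and 39.6, 59.4, 41.9, 26.6 and 61.2 (log2 -1.25, and -0.40 after correction, adjusted p = 0.336). Hmgb2 was 114.2, 87.2, 94.0, 65.1 and 110.5 and 119.1, 134.4, 144.3, 202.9 and 139.1 (log2 -0.65, and 0.14 after correction). All 3 were lower in HT-Flx without overlap as deposited, and of them Mki67 alone was called after the correction. Of the mitotic exit genes, Cdc20 was 110.4, 86.8, 55.7, 71.6 and 95.2 and 49.9, 37.0, 46.9, 61.1 and 44.7 (log2 0.78, and 0.38 after correction). Espl1, with the highest GC content of the members (56.1%), was 166.3, 100.5, 97.1, 192.3 and 128.5 and 47.5, 101.3, 46.1, 154.5 and 21.9 (log2 1.13, and 0.51 after correction). Both were higher in HT-Flx as deposited and neither was called after the correction.

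A further 3 S phase genes were called only with the correction. Mcm6 went from 0.13 to 0.47 (adjusted p = 0.00447), Rrm2 from -0.00047 to 0.50 (adjusted p = 0.0208) and Pcna from 0.0042 to 0.37 (adjusted p = 0.0362). With the correction all 7 members that were higher in HT-Flx were S phase genes or Aurka, and the 5 that were lower were Mki67, Ccna2, Prc1, Cenpe and Tpx2. As shares of the 36 members, both counts were near the shares of all genes called with the correction, given above. The summed markers stood apart between these groups in 3 of 9 cell type lists as deposited. The sum of 8 oligodendrocyte precursor markers was 15097 to 20910 in the HT-Flx mice and 11824 to 13846 in the WT-Flx mice, that of 6 mature oligodendrocyte markers 250439 to 279477 and 178474 to 236994, and that of 6 astrocyte markers 62745 to 97419 and 103450 to 115718. Single markers went both ways within each list. Of the precursor markers 6 were called higher and 1 lower, of the mature oligodendrocyte markers 3 and 1, and of the astrocyte markers 2 and 4, where 33.1% and 30.5% of all genes were called. The part of these cells in the members' values was not tested. The rho with GC content over the 36 members was still 0.37 after the correction. Whether GC content or the drug and genotype set the remaining differences was not tested.

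**Figure D5:**
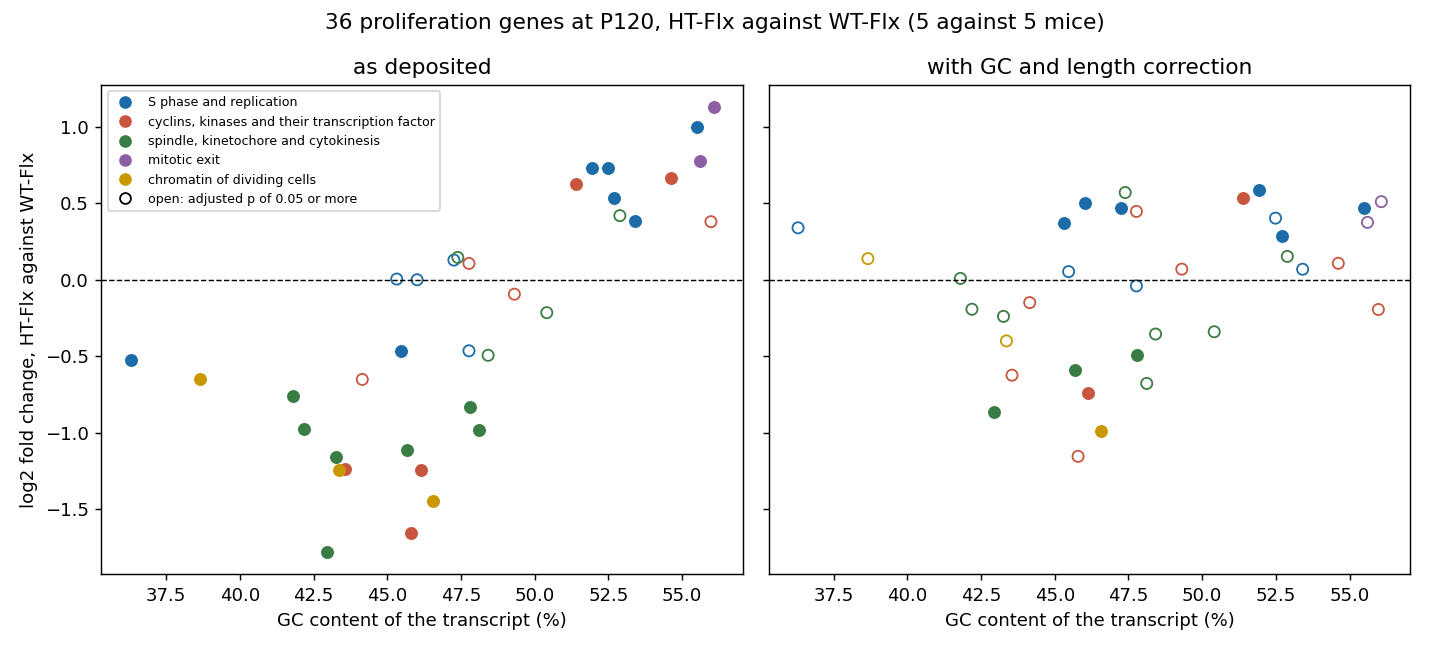
Log2 fold change of HT-Flx against WT-Flx for the 36 members tested, against the GC content of the transcript, as deposited (left) and with the GC and length correction (right), with open points for an adjusted p of 0.05 or more. As deposited, 15 members are called lower and 9 higher, where those called lower have a GC content of 48.1% or less and those called higher 51.4% or more. After the correction 5 are lower and 7 higher.

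The difference between the genotypes in the response to fluoxetine was below 0 in 6 called members (Mki67, Hmgb2, Kif11, Ccne2, Melk and Pbk, against 11.5% of 17796 genes) and above 0 in 2 (Mcm2 and Mcm3, against 15.8%). Mki67 had the lowest p (log2 -1.52 ± 0.40, adjusted p = 0.0347). Melk and Pbk lay near the floor, with means of 6.24 and 5.84 in HT-Flx, and were not tested in HT-Flx against HT-Veh. No member was called with the GC and length correction, none without the library labelled WT-Veh replicate 2, none without any 1 of HT-Flx replicate 1, WT-Flx replicates 2 or 3, HT-Veh replicates 4 or 5 and WT-Veh replicates 3 or 4, and none without both libraries labelled replicate 2 of the vehicle groups. Without the library labelled HT-Veh replicate 2 alone, 6 were below 0 and 1 above.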

How the data were processed

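Whole-brain RNA of 30 male mice was sequenced by the authors (TruSeq RNA Sample Prep Kit v2), and Salmon 1.1.0, R 4.1.1, DESeq2 1.30.1 and the build GRCm38 stand in the submitters' processing notes. The values are DESeq2-normalized counts, deposited by the authors as 1 signal table of 19737 genes, after transcript quantification with GC bias correction and division by size factors. They could not be turned back into whole reads, so read depth is unknown and no count test was run. Symbols were found for 99.9% of genes from GENCODE vM21. Groups came from the GEO labels. Values were tested as log2(value + 1) with limma 3.58.1 in R 4.3.3, with an intensity trend, over genes with a mean of at least 10 in the compared mice, two-sided, with Benjamini-Hochberg adjustment over all genes. Age comparisons were rescaled by median-of-ratios factors. Alternatives were pseudocounts of 5 and 0.1, no filter, a minimum mean of 100, other scaling, no trend, a replicate block, each mouse left out, and a per-library correction over 10 bins of GC content and 10 of length. The fitting code was tested on simulated data. The members, role groups and gene lists were chosen with earlier results of these data known. Per-mouse values are given for the highest member of each role group, Mki67, Top2a, Cdk1, Pcna, the 3 largest and 3 smallest age changes in WT, and any member called within an age. In each comparison within an age the member with the lowest p in each direction is named, and from each of the 3 further lists the 3 largest age changes in each direction.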

Additional observations from a re-analysis of the deposited data

Results flagged for a closer look

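In 12 of 220 sets of 5 mice (5.45%, where chance gives about 1 in 20) 1 mouse lay far from the other 4 of its group in a member. The high values were Mcm3 in WT-Flx replicate 3 (101.7), Mcm6 in the library labelled HT-Veh replicate 2 (389.5), Mcm7 in WT-Flx replicate 1 (580.1), Pcna in HT-Veh replicate 3 (2262.5), Foxm1 in HT-Veh replicate 3 (93.1), Hmgb2 in HT-Veh replicate 3 (237.2), Pbk and Bub1b in WT-Veh replicate 5 (21.3 and 191.8) and Cenpf in the library labelled WT-Veh replicate 2 (112.9). The low values were Mcm7 in P10 HT replicate 5 (612.2), Prc1 in P10 HT replicate 1 (177.3) and Rrm2 in HT-Flx replicate 1 (32.2). HT-Veh replicate 3 stood out in 3 members, Pcna, Foxm1 and Hmgb2, each time as the highest mouse.

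The response to fluoxetine was called different between the genotypes in 8 members by the interaction test (limma), 6 below 0 (11.5% of all genes) and 2 above (15.8%). None of the 8 was called with the GC and length correction or without the library labelled WT-Veh replicate 2. The difference, HT response minus WT response on the log2 scale, was -1.88 (Melk), -1.52 (Mki67), -1.20 (Pbk), -1.12 (Kif11), -0.99 (Hmgb2) and -0.84 (Ccne2), and 0.89 (Mcm2) and 0.69 (Mcm3). Melk and Pbk had means of 6.24 and 5.84 in HT-Flx, under the limit of 10 used for testing. They were not tested in HT-Flx against HT-Veh, so their differences rest on values near the floor. The members below 0 have GC contents of 36.3 to 46.6%, and Mcm2 and Mcm3 of 55.5 and 52.5%.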

How the results depend on the processing

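The age counts in WT kept within 1.5 times of the reported ones under every alternative, and no member was called in the genotype comparisons at P10 or in the vehicle groups, or between WT-Flx and WT-Veh, under any. In HT, 18 members were lower with age at a minimum mean of 100, where fewer members are tested, and 2 were higher with the GC and length correction without the library labelled HT-Veh replicate 2, an alternative chosen after seeing the data, as were the other combinations of the correction with left-out vehicle libraries. Ccne2 turned from -0.25 to 0.24 with the correction, with and without the replicate block, and to 0.26 when that library was also left out. Leaving out 1 mouse at a time moved Pcna between -0.0073 and 0.25 with age in HT and Mcm7 between -0.049 and 0.067 at P10. Between HT-Flx and HT-Veh 1 member was lower with the replicate block. Between HT-Flx and WT-Flx the lower count was 3 at a minimum mean of 100, 5 with the correction and 3 with correction and block, the higher count was 3 with correction and block, and the correction turned Mcm4 to 0.053, Nusap1 to 0.0084, Ccne2 to 0.34 and Hmgb2 to 0.14, with and without the block. For the genotype by fluoxetine difference the higher count was 1 without a filter, 1 without the trend and 4 at a minimum mean of 100, where the lower count was 2. Both counts were 0 with the correction, with correction and block, without both libraries labelled replicate 2 of the vehicle groups, and with the correction without both. Leaving out 1 mouse gave 0 to 5 higher and 0 to 9 lower. The cause of these moves was not tested. Whether mice with the same number share more than the number is not known. In no comparison did every same-number pair deviate together, which cannot exclude a shared litter or batch. For HT-Flx and HT-Veh the mean correlation of same-number pairs was 0.18 (from -0.018 to 0.41), against -0.044 for other pairs. The replicate block raised the P10 members lower at an unadjusted p under 0.05 from 18 to 26, and gave 31 and 37 members lower with age in HT and WT. Depth is unknown, so adult values near 0 carry an unknown counting error.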
